A study of Mus musculus with 6 samples.

Results

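The genes described here are 9 members of the MS4A family of membrane proteins, chosen by symbol: Ms4a4a, Ms4a4b, Ms4a4c, Ms4a4d, Ms4a6b, Ms4a6c, Ms4a6d, Ms4a7 and Ms4a8a. Of these, 8 were found among the 24346 gene symbols of the deposited tables, and Ms4a4a was not matched under its symbol or a RefSeq synonym. An expression filter of at least 1 FPKM (fragments for each kilobase of transcript, relative to all mapped fragments of the library) in at least 3 of the 6 libraries was passed by 7 members, and Ms4a4d stayed below it. The members were put together with their IL-33 and PBS values known. Their levels and changes are therefore given as a description, without p-values.

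The libraries were made from mouse splenic cells enriched for CD11c, a surface integrin of dendritic cells, by magnetic sorting on an autoMACS instrument. The labels give 3 libraries treated with IL-33, an alarmin cytokine of the IL-1 family, and 3 treated with PBS, a buffered saline. They name no genotype, strain, age, dose, time or route, do not say whether treatment was in the animal or in culture, and do not say whether replicates are different mice, so p-values measure the spread between libraries, which may be technical. All 8 genes listed for CD11c dendritic cells were expressed, which are Itgax, Flt3, Zbtb46, H2-Aa, H2-Ab1, Cd74, Ccr7 and Batf3. Itgax encodes CD11c, and the list was not limited to genes found only in dendritic cells. So were all 20 listed T cell markers and all 20 listed natural killer (NK) cell markers. In such bulk libraries, fewer cells of a type and less RNA per cell cannot be told apart.

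MS4A proteins are tetraspan membrane proteins with both ends in the cytoplasm. The best known is CD20, the B cell protein encoded by Ms4a1, and the beta chain of the high-affinity IgE receptor, encoded by Ms4a2, belongs to the same family. Many of them sit beside other receptors in the membrane and modulate their signals. In mice the Ms4a4 and Ms4a6 subfamilies have several close copies. Ms4a4b is known from T cells and NK cells, Ms4a6b from T cells, Ms4a7, Ms4a6c and Ms4a6d from monocytes and macrophages, and Ms4a8a from alternatively activated macrophages.

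All 9 genes are protein-coding and lie in 1 cluster on chromosome 19 of mm10 (GRCm38), within 537 kb from 11067471 to 11604849 in the GENCODE M21 annotation. Ms4a8a (11067471 to 11081102), Ms4a7 (11321039 to 11336146) and Ms4a6d (11586604 to 11604849) are on the minus strand. Ms4a4a (11375523 to 11392790), Ms4a4c (11404770 to 11427246), Ms4a4b (11443553 to 11467055), Ms4a6c (11469366 to 11482192), Ms4a6b (11516512 to 11531256) and Ms4a4d (11536801 to 11558467) are on the plus strand.

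Ms4a4b and Ms4a4c were the most alike pair, with 91.7% identity over 678 aligned coding bases. Ms4a4d was 86.1% identical to Ms4a4c and 83.8% to Ms4a4b. In the second subfamily Ms4a6b was 85.8% identical to Ms4a6c and 81.2% to Ms4a6d. The first 90 coding bases of both subfamilies are shown because their likeness limits how surely a read can be given to 1 gene. Capitals mark the bases that differ from Ms4a4b in the first subfamily and from Ms4a6b in the second.
Ms4a4b: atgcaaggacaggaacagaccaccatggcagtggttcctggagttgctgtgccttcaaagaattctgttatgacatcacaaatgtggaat
Ms4a4c: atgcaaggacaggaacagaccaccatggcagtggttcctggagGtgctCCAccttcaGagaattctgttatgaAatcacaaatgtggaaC
Ms4a4d: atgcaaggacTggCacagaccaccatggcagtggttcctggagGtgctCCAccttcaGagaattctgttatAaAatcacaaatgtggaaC
Ms4a6b: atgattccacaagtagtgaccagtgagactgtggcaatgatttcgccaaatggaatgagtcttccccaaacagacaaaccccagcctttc
Ms4a6c: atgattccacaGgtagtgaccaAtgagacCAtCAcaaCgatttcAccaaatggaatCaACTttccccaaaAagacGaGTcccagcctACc
Ms4a6d: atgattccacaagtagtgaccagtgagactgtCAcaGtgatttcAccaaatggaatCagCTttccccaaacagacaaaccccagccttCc
In this window 7 bases of Ms4a4c and 10 of Ms4a4d differed from Ms4a4b, and 18 of Ms4a6c and 8 of Ms4a6d differed from Ms4a6b. Elsewhere the sequences run together for longer. The longest stretch that Ms4a4b and Ms4a4c share without a difference is 127 coding bases, from base 321 to base 447 of both, shown here because reads within it fit either gene.
Shared by Ms4a4b and Ms4a4c: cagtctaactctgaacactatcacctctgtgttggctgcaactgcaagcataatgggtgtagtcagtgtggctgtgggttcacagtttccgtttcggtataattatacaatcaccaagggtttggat
Of all stretches of 50 bases in the Ms4a4c transcript, 8% also occurred in Ms4a4b, as did 2.85% of those of Ms4a4b in Ms4a4c. For Ms4a6b the share also found in Ms4a6c was 6.11%, and in Ms4a6d 2.44%. How the authors assigned such reads is not given in the sources used here, so values of close copies are uncertain to that extent. The library kit was a stranded one per the labels, but whether counting used the strand is not given in the sources used here. Ms4a6c overlaps the opposite-strand transcript BE692007 over 12027 bases, and Ms4a6b and Ms4a4c overlap opposite-strand genes over 442 and 235 bases.

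As a group the members did not move together. Ms4a8a and Ms4a6d were several-fold higher with IL-33, Ms4a4b was several-fold lower and Ms4a6b moderately lower, while Ms4a4c, Ms4a6c and Ms4a7 overlapped between the groups. In a limma fit on log2(FPKM + 1) over all 11518 genes that passed the filter, 2 of the 7 members were past an adjusted p of 0.05 as higher, where 28% of all tested genes were, and 2 as lower, where 25.5% were. With a change of at least 1 on the log2 scale there were 2 higher members and 1 lower member, against 3.11% and 1.91% of tested genes. The IL-33 and PBS values did not overlap for 4 members, 2 above and 2 below, against 63.6% of all tested genes (32.7% above and 30.9% below). These counts are descriptions, since this contrast was known when the members were chosen. The median change was 0.10 over the 7 members and 0.01 over all tested genes, on the log2 scale as IL-33 minus PBS.

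**Figure D1:**
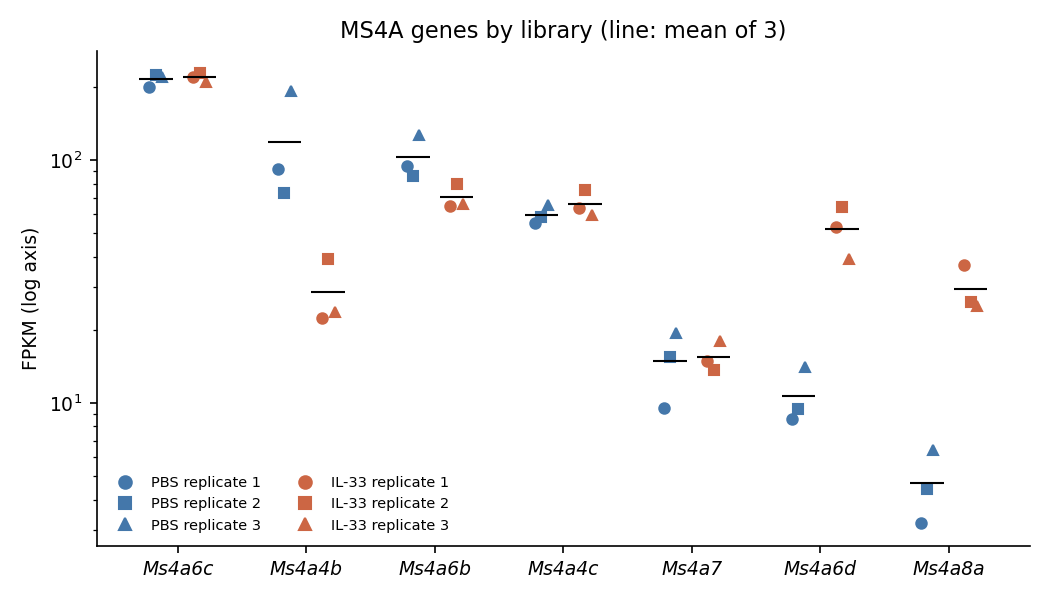
FPKM (log axis) of the 7 members that passed the filter in each library, in order of their mean with PBS. Points are single libraries (blue PBS, orange IL-33, the symbol gives the replicate) and lines are means of 3. Ms4a6d and Ms4a8a lie higher in all 3 IL-33 libraries than in any PBS library, and Ms4a4b and Ms4a6b lie lower.

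Ms4a8a, the gene of alternatively activated macrophages, had the largest change of the members as reported, though with a pseudocount of 5 its value (1.82) was just under that of Ms4a6d (1.85). It stood at 3.20, 4.44 and 6.41 FPKM in PBS replicates 1, 2 and 3, against 37.0, 25.9 and 25.1 FPKM in the IL-33 replicates in the same order. Every IL-33 library was far above every PBS library, and IL-33 replicate 1 was the highest. The means were 4.68 ± 1.62 and 29.3 ± 6.65 FPKM (SD, n = 3 per group), 6.27-fold more with IL-33. The log2 change was 2.43 (SE 0.23), and 54 of the 11518 tested genes had a higher one.

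Ms4a6d, a myeloid member that lies farthest from Ms4a8a among the members, came next. Its PBS values were 8.61, 9.41 and 14.1 FPKM and its IL-33 values 53.0, 64.0 and 39.2 FPKM, again without overlap. The mean went from 10.7 ± 2.95 to 52.1 ± 12.4 FPKM (SD, n = 3 per group), which was 4.87-fold more. Its log2 change was 2.18 (SE 0.22). Among all tested genes 75 had a higher change. A change of at least 2 upwards was seen in 0.773% of tested genes. The IL-33 library with the most Ms4a6d was replicate 2, whereas Ms4a8a was highest in replicate 1.

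Ms4a4b, which modulates T cell activation, was the member with the largest change downwards. It stood at 92.0, 73.0 and 192 FPKM in PBS replicates 1, 2 and 3, against 22.4, 39.3 and 23.7 FPKM with IL-33. The groups did not overlap, but PBS replicate 3 held more than the other two PBS libraries together. The means were 119 ± 64.1 and 28.5 ± 9.40 FPKM (SD, n = 3 per group), 4.18-fold less with IL-33. The log2 change was -1.94 (SE 0.36), and 27 tested genes had a lower one. It was -1.54 without PBS replicate 3.

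Ms4a6b, the other member known from T cells, was lower to a smaller extent. PBS libraries held 94.8, 86.0 and 127 FPKM and IL-33 libraries 64.8, 79.9 and 66.3 FPKM, so the lowest PBS and the highest IL-33 value were close. The means were 103 ± 21.7 and 70.3 ± 8.36 FPKM (SD, n = 3 per group), with a log2 change of -0.53 (SE 0.15). Its call was lost without IL-33 replicate 1 (-0.47) or IL-33 replicate 3 (-0.49). As for Ms4a4b, PBS replicate 3 was the highest library.

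Ms4a6c was the most abundant member in all 6 libraries. It held 201, 225 and 219 FPKM with PBS, against 220.0, 228 and 210 FPKM with IL-33, with overlapping groups and means of 215 ± 12.6 and 219 ± 8.87 FPKM (SD, n = 3 per group). Its log2 change of 0.03 (SE 0.07) did not pass the threshold as deposited, but it was -0.31 with libraries rescaled to equal totals and -0.34 with quantile normalization, and passed as lower under both. Equal totals moved the median of all tested genes from 0.01 to -0.29, so that Ms4a6c then lay -0.02 from the median, whereas the median with quantile normalization was -0.01.

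Ms4a4c, the nearest copy of Ms4a4b, did not share its pattern. It stood at 55.4, 58.3 and 65.2 FPKM with PBS, against 63.2, 75.4 and 59.3 FPKM with IL-33, with a log2 change of 0.14 (SE 0.11) that turned to -0.20 with equal totals and -0.08 with quantile normalization without passing in either. Both genes were at similar levels with PBS in replicates 1 and 2, with 1.66 and 1.25 times as much Ms4a4b as Ms4a4c, and 2.95 times in replicate 3. With IL-33 that ratio was 0.355, 0.522 and 0.400, below all 3 PBS values. Within the other subfamily the ratio of Ms4a6d to Ms4a6c was higher with IL-33 in every library, at 0.0429, 0.0418 and 0.0642 with PBS and at 0.241, 0.281 and 0.186 with IL-33.

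Ms4a7, a macrophage member, varied more between PBS libraries than between groups. It was at 9.57, 15.5 and 19.5 FPKM with PBS, against 14.8, 13.7 and 18 FPKM with IL-33, with a log2 change of 0.10 (SE 0.23), which was -0.16 without PBS replicate 1, 0.32 without PBS replicate 3 and -0.21 with equal totals. None of these passed the threshold. Ms4a8a, its neighbour among the measured members on the same strand, was at 0.334, 0.287 and 0.329 times Ms4a7 with PBS and at 2.50, 1.89 and 1.39 times with IL-33.

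Ms4a4d was close to the limit of detection. Its values of 0.163, 0.0498 and 0.178 FPKM with PBS, against 0.0506, 0 and 0 FPKM with IL-33, are whole multiples of 1 step, within 2% after scaling by relative depth. They correspond to 3, 1 and 4 steps with PBS and 1, 0 and 0 with IL-33, where 1 step is taken as the worth of 1 fragment. Such numbers are too few to describe a change. The lowest value of a tested member, Ms4a8a in PBS replicate 1, was as large as 59 steps of Ms4a4d. The worth of 1 fragment differs between genes with transcript length, so this is not a number of Ms4a8a fragments.

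**Figure D2:**
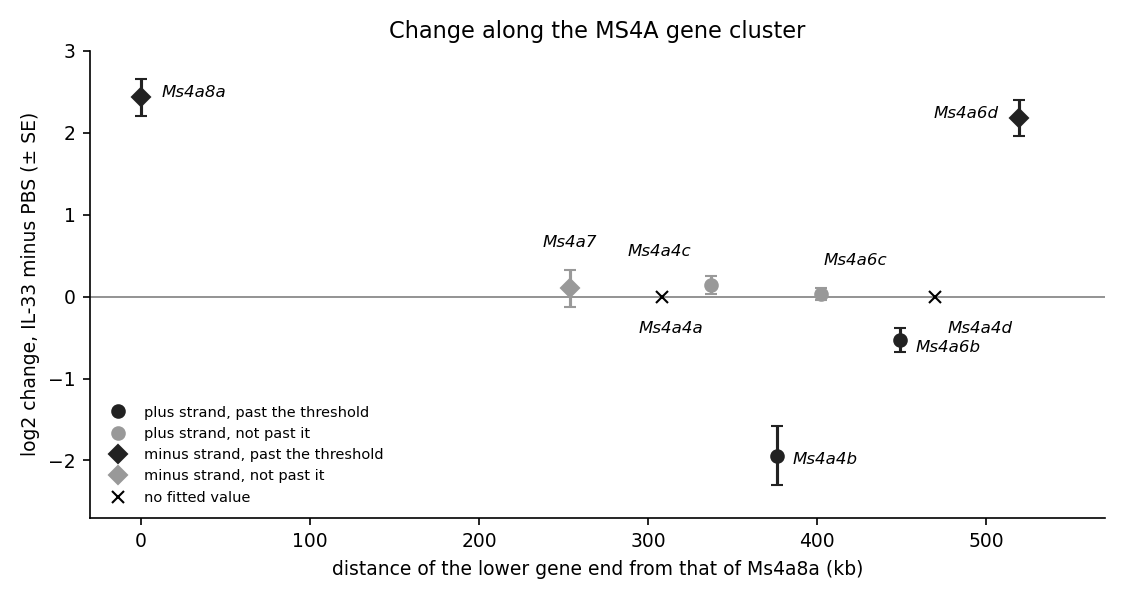
Log2 change (IL-33 minus PBS, error bars SE) of each member against the distance in kb of its lower end from that of Ms4a8a. Black points passed the adjusted p of 0.05, grey ones did not, diamonds are minus-strand genes and crosses are Ms4a4a and Ms4a4d, which have no fitted value and are drawn at 0 only to show their position. The members with the highest changes, 2.43 (Ms4a8a) and 2.18 (Ms4a6d), lie at opposite ends of the plotted stretch, and the lowest, -1.94 (Ms4a4b), lies between members that did not pass.

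Position in the cluster did not sort the changes. Ms4a4b lies between Ms4a4c and Ms4a6c on the same strand, and both of these overlapped between groups. The lower ends of Ms4a8a and Ms4a6d are 519.1 kb apart, and other Ms4a genes lie beyond both.

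The summed transcript of the members overlapped between the groups as deposited, at 465, 472 and 644 FPKM with PBS, against 475, 526 and 442 FPKM with IL-33. As a percentage of each library's FPKM total, it was 0.0756%, 0.0735% and 0.101% with PBS and 0.0565%, 0.0676% and 0.0565% with IL-33, so that on this scale every IL-33 library was below every PBS library. The make-up of the sum differed, and shares of it do not depend on a factor applied to a whole library. Ms4a4b made up 19.8%, 15.5% and 29.8% of the sum with PBS and 4.72%, 7.47% and 5.37% with IL-33. Ms4a6d and Ms4a8a held on average 2.01% and 0.875% with PBS and 10.7% and 6.13% with IL-33. Ms4a6c kept the largest share, 41.7% ± 6.97 and 45.7% ± 2.18 (SD, n = 3 per group). FPKM is scaled by transcript length, so these levels can be compared between genes.

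**Figure D3:**
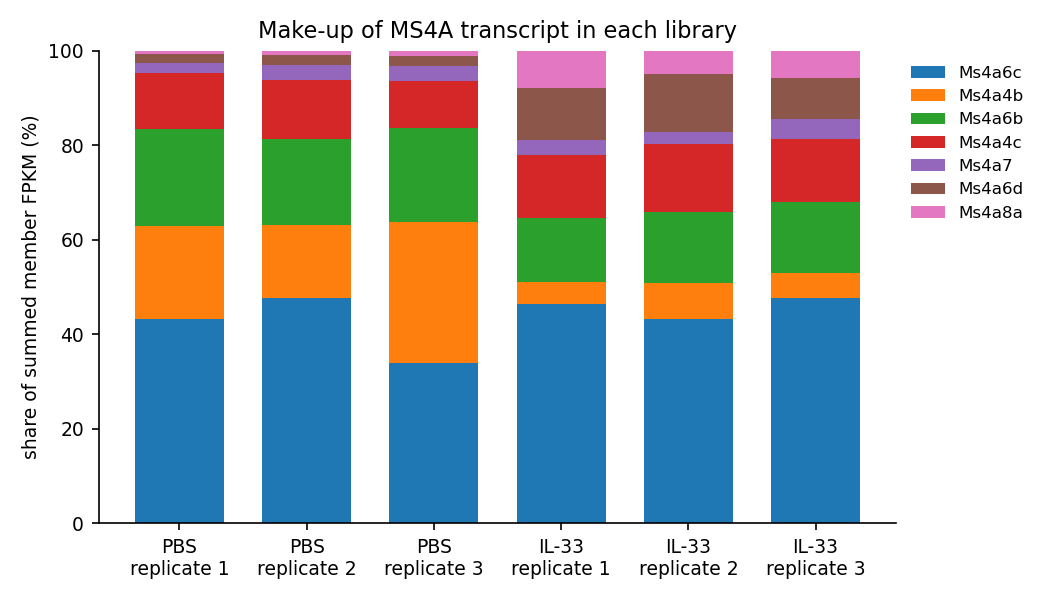
Share of the summed member FPKM (percent, bars stacked to 100) held by each of the 7 tested members in each library. Ms4a4d, at most 0.035%, is too thin to draw. The Ms4a4b segment shrinks from 15.5% or more in PBS libraries to 7.47% or less in IL-33 libraries, and the Ms4a6d and Ms4a8a segments widen.

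The order of the levels changed accordingly. With PBS it was Ms4a6c, Ms4a4b, Ms4a6b, Ms4a4c, Ms4a7, Ms4a6d, Ms4a8a and Ms4a4d by mean. The ranges of Ms4a4b and Ms4a6b overlapped there, as did those of Ms4a7 and Ms4a6d. With IL-33 the order was Ms4a6c, Ms4a6b, Ms4a4c, Ms4a6d, Ms4a8a, Ms4a4b, Ms4a7 and Ms4a4d, in which Ms4a6b and Ms4a4c, Ms4a4c and Ms4a6d, and Ms4a8a and Ms4a4b overlapped between neighbours. Ms4a4b thus ranked 3, 3 and 2 among the members in PBS libraries and 6, 5 and 6 in IL-33 libraries, and Ms4a6d ranked 6 in every PBS library and 4 in every IL-33 library.

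Marker lists of other cells are given beside the members. Their counts are to be read against 28% of all tested genes higher and 25.5% lower. The lists were chosen with earlier results of these data known. T cell markers fell in 18 of 20 cases with none higher, Tcf7 and Cd247 among them. The summed level of the list was 460, 309 and 709 FPKM in PBS replicates 1, 2 and 3 and 172, 192 and 148 FPKM with IL-33. The order of the PBS libraries was the same for Ms4a4b, whose highest IL-33 library, replicate 2, was also that of the T cell sum. IL-33 replicates 1 and 3 stood in the opposite order in Ms4a4b and in the T cell sum. Per 1000 FPKM of T cell markers, Ms4a4b stood at 200, 237 and 271 FPKM with PBS, against 130, 204 and 160 FPKM with IL-33, so on that scale the groups overlapped. NK cell markers fell in 17 of 20 cases with none higher, led by Klrd1, Cd7 and Klra8, from sums of 1779 to 2649 FPKM with PBS to 963 to 1246 FPKM with IL-33. Per 1000 FPKM of NK cell markers, Ms4a4b was at 51.7, 38.8 and 72.6 FPKM with PBS, against 23.3, 31.6 and 20.3 FPKM with IL-33, without overlap. The NK cell sum shared the order of the IL-33 libraries with Ms4a4b, but not that of PBS replicates 1 and 2. None of either list was at 0 in all libraries, and their part in the lower Ms4a4b was not tested. For Ms4a6b the value per 1000 FPKM of T cell markers was higher with IL-33 (376, 416 and 448 FPKM) than with PBS (206, 279 and 180 FPKM).

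**Figure D4:**
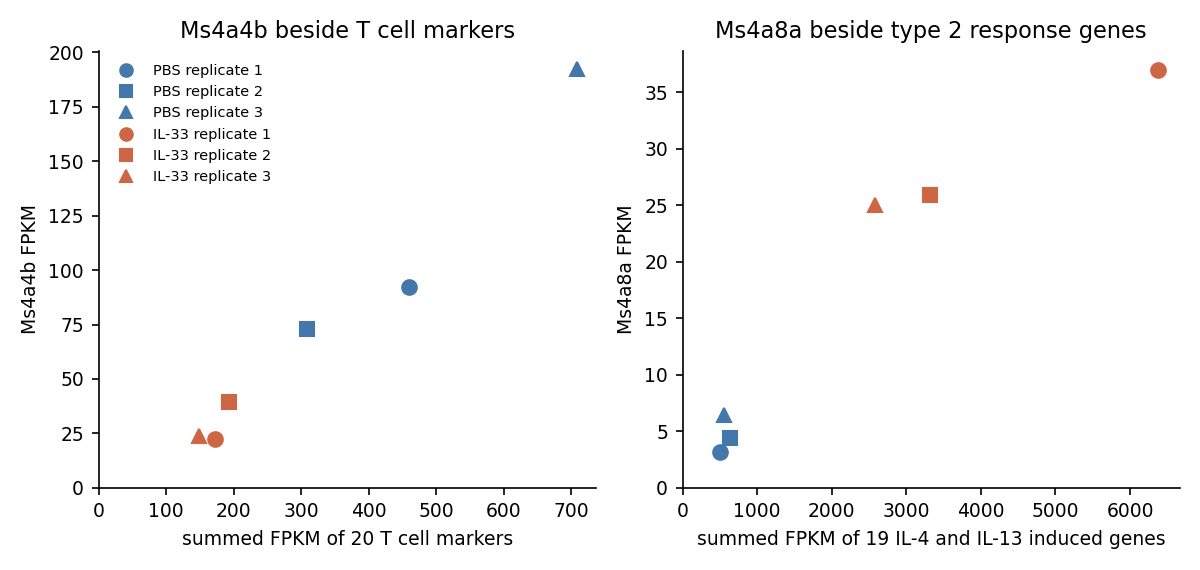
Left, Ms4a4b (FPKM) against the summed FPKM of 20 T cell markers; right, Ms4a8a (FPKM) against the summed FPKM of 19 target genes of IL-4 and IL-13; 1 point per library. PBS replicate 3 is highest on both axes on the left (709 and 192 FPKM), and IL-33 replicate 1 is highest on both axes on the right (6373 and 37.0 FPKM). The sum on the right includes Retnla, which averaged 2430 FPKM with IL-33.

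Beside Ms4a8a and Ms4a6d, target genes of IL-4 and IL-13 rose in 14 of 19 cases and fell in 1 (13 and 3 with equal totals), led by Ccl17, Retnla and Ccl24, with sums of 507 to 632 FPKM with PBS, against 2578 to 6373 FPKM with IL-33, highest in IL-33 replicate 1 as for Ms4a8a. Of 10 eosinophil markers 8 rose, led by Prg2, Siglecf and Ear6, and none fell, with sums of 218 to 311 FPKM with PBS, against 882 to 1265 FPKM with IL-33. All 10 listed genes were tested, of which 5 had a PBS mean of at least 1 FPKM. No gene of either list was at 0 in all libraries. Per 1000 FPKM of the IL-4 and IL-13 targets, Ms4a8a was at 6.30, 7.02 and 11.5 FPKM with PBS, against 5.81, 7.81 and 9.72 FPKM with IL-33, with overlap. Values per 1000 FPKM of eosinophil markers overlapped too, at 14.7, 14.3 and 21.5 FPKM with PBS, against 29.5, 20.5 and 28.4 FPKM with IL-33. Those per 1000 FPKM of macrophage markers did not, at 1.01, 0.961 and 1.21 FPKM with PBS, against 6.38, 5.70 and 4.10 FPKM with IL-33, and nor did those per 1000 FPKM of monocyte markers (0.782, 0.888 and 1.36 against 6.51, 5.05 and 5.71 FPKM). Per 1000 FPKM of eosinophil markers, Ms4a6d was at 39.5, 30.3 and 47.2 FPKM with PBS, against 42.3, 50.6 and 44.5 FPKM with IL-33, with overlap. Per 1000 FPKM of the IL-4 and IL-13 targets, Ms4a6d was at 17, 14.9 and 25.3 FPKM with PBS, against 8.32, 19.3 and 15.2 FPKM with IL-33. That was an overlap too, as for Ms4a8a. Retnla alone averaged 2430 FPKM with IL-33, so it weighs heavily in the sums of the IL-4 and IL-13 targets. Per 1000 FPKM of macrophage markers Ms4a6d was at 2.73, 2.04 and 2.65 FPKM with PBS, against 9.13, 14.1 and 6.41 FPKM with IL-33, without overlap, as it was per 1000 FPKM of monocyte markers (2.11, 1.88 and 2.99 against 9.32, 12.4 and 8.94 FPKM). Of 19 macrophage markers 6 were past the threshold as higher and none as lower (sums of 3150 to 5314 and 4549 to 6114 FPKM, but 1 higher and 2 lower with equal totals), and monocyte markers rose in 3 of 18 and fell in 5 (4087 to 4999 and 4387 to 5686 FPKM, none and 8 with equal totals). As deposited, the macrophage count of higher genes and the monocyte count of lower genes lay near the shares of all tested genes (28% and 25.5%). Which of the sorted cells held the Ms4a8a and Ms4a6d transcripts was not tested. Of the remaining lists, 9 of 13 tested neutrophil markers rose and 3 fell (9 and 4 with equal totals). Of the 17 listed, 12 had a PBS mean of at least 1 FPKM. Without the filter 12 of 16 neutrophil markers were higher and 2 lower, against 18.5% and 17% of all genes in that fit. Of 10 tested basophil and mast cell markers 6 rose and 1 fell (5 and 2 with equal totals), but only 4 of the 15 listed had a PBS mean of at least 1 FPKM, so the filter favoured those that were higher with IL-33. Without the filter 9 of 15 were higher and 1 lower, and the summed level of the list was 51.4 to 58.0 FPKM with PBS, against 53.4 to 65.1 FPKM with IL-33. The numbers higher and lower were 3 and 2 of 20 for interferon-stimulated genes (2 and 10 with equal totals), 0 and 3 of 17 for B cell markers (0 and 6 with equal totals) and 0 and 8 of 10 for plasmacytoid dendritic cell markers. Markers of conventional dendritic cells of type 1 rose and fell in 3 and 6 of 10 cases and those of type 2 in 4 and 3 of 10 (2 and 6 with equal totals). The genes listed for CD11c dendritic cells rose and fell in 6 and 2 of 8 (5 and 2 with equal totals). Zbtb46 was among those that fell (log2 change -0.63, SE 0.07).

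The genes whose pattern over the 6 libraries was most like that of each member were found by the root mean square difference of log2(FPKM + 1) values, each centred on its own mean. For Ms4a4b they were Ctsw, a protease of cytotoxic lymphocytes (difference 0.154), and Lck, the T cell receptor kinase, itself on the T cell list (0.213). Ctsw stood at 37.1, 32.0 and 65.6 FPKM with PBS, against 10.4, 16.0 and 9.99 FPKM with IL-33. For Ms4a8a they were Clec4b1, a C-type lectin receptor of myeloid cells (0.181), and the chemokine gene Ccl6 (0.188), which went from 96.3, 121 and 121 FPKM to 811, 627 and 479 FPKM. Ms4a6d was nearest to Upp1, a uridine phosphorylase (0.208), and Ocstamp, which acts in the fusion of osteoclasts (0.211). Upp1 was near the floor, at 0.26, 0.119 and 0.267 FPKM with PBS, against 4.06, 5.28 and 2.61 FPKM with IL-33, where the pseudocount of 1 compresses differences. Ocstamp stood at 4.25, 4.22 and 4.87 FPKM with PBS, against 20.3, 22.7 and 15.4 FPKM with IL-33. Ms4a6b was nearest to H2-Q9, an MHC class I gene (0.0767). For Ms4a4c, Ms4a6c and Ms4a7, whose values hardly separated the groups, the nearest were Qrsl1 and Slbp, Serinc1 and Tmsb15l, and Mpzl1 and Tmem26.

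The rest of the family was read from a list of 14 genes, 12 other Ms4a genes and the related Tmem176a and Tmem176b. Of these, 3 passed the filter, and 2 rose and none fell, where 28% of all tested genes were higher and 25.5% lower. A count over 3 genes says little about the family. Tmem176b, a tetraspan channel gene of dendritic cells, rose from 273 ± 15.4 to 434 ± 67.2 FPKM (SD, n = 3 per group, log2 change 0.66, SE 0.11, limma adjusted p = 0.00303). Tmem176a, its neighbour gene, rose from 143 ± 12.7 to 217 ± 32.3 FPKM (log2 change 0.60, SE 0.12, limma adjusted p = 0.00493). With quantile normalization both calls were lost (0.24, limma adjusted p = 0.0662, and 0.21, limma adjusted p = 0.13, the least favourable values over all alternatives, which began at 0.003 and 0.00493). Ms4a1, which encodes CD20, was at 105, 57.0 and 40.6 FPKM with PBS, against 80.0, 75.3 and 61.9 FPKM with IL-33 and did not pass (log2 change 0.20, SE 0.31, limma adjusted p = 0.599). Without PBS replicate 1, which also held the highest sum of B cell markers (1221 FPKM against 714 and 550 FPKM in the other PBS libraries), the change was 0.57 (limma adjusted p = 0.0322; over all alternatives it reached 0.939).

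Lower members of the family were tested only in the fit without a filter, in which 18.5% of 17265 genes were higher and 17% lower. There 5 of 7 family genes were higher, Tmem176a and Tmem176b among them, and none lower. Ms4a2, the beta chain of the IgE receptor of basophils and mast cells, was at 0.0614, 0.179 and 0.253 FPKM with PBS, against 0.775, 0.516 and 0.389 FPKM with IL-33 (log2 change 0.42, limma adjusted p = 0.0252). Ms4a3, known from myeloid precursors and basophils, had a listed value of 0 in each PBS library and reached 2, 8 and 7 steps with IL-33 (0.159, 0.674 and 0.630 FPKM, limma adjusted p = 0.0255). Ms4a10 was likewise listed at 0 with PBS and at 3, 1 and 1 steps with IL-33 (limma adjusted p = 0.0436). Like those of Ms4a4d, these steps are too few to describe a change. Ms4a3 was also close to the limit of detection, so the count of 5 rests partly on such genes. Ms4a15 stood at 4, 1 and 2 steps with PBS and 1, 0 and 0 with IL-33 (limma adjusted p = 0.135). Ms4a5, Ms4a13, Ms4a18, Ms4a19 and Ms4a20 were listed at 0 in every library.

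Of 4 listed genes of receptors known to associate with MS4A proteins, 3 were tested. All 3 were higher with IL-33 as deposited, against 28% of all tested genes, and 1 with equal totals. Clec7a encodes dectin-1, the glucan receptor beside which MS4A4A acts in macrophages, and rose from 78.6 ± 10.6 to 279 ± 22.9 FPKM (SD, n = 3 per group, log2 change 1.82, SE 0.11, limma adjusted p = 0.000106). Fcer1g, the shared signalling chain of Fc receptors, rose by 0.50 (SE 0.11, limma adjusted p = 0.00828), which was 0.16 with equal totals and 0.04 with quantile normalization and did not pass under either. Tnfrsf18 encodes GITR, a partner of MS4A4B in T cells, and rose by 0.31 (SE 0.07, limma adjusted p = 0.0101), opposite to Ms4a4b, but stood at -0.02 with equal totals (limma adjusted p = 0.889, the highest over the alternatives, of which 0.00766 was the lowest). Fcer1a, the IgE-binding chain that joins Ms4a2, was below the filter and went from 0.0989 ± 0.0332 to 0.952 ± 0.320 FPKM (SD, n = 3 per group, limma adjusted p = 0.0042 without a filter).

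RefSeq promoters (GRCm38.p6) were at hand for 8 of the 9 members. The promoter of Ms4a6d was not at hand and was not searched. The 250 bases before the start site are shown for Ms4a8a and Ms4a4b, the members with the highest and the lowest change as reported, and for Ms4a4c, the near-copy of Ms4a4b that differed from it in pattern. Capitals mark GAGGAA, the core that the myeloid and B cell factor PU.1 binds.
Ms4a8a promoter (chr19:11081104-11081353, minus strand): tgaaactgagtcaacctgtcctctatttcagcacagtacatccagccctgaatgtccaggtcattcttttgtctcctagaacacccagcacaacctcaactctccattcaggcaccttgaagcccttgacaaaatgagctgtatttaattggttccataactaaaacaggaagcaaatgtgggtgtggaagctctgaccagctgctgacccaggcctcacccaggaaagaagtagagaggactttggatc
Ms4a4b promoter (chr19:11443308-11443557, plus strand): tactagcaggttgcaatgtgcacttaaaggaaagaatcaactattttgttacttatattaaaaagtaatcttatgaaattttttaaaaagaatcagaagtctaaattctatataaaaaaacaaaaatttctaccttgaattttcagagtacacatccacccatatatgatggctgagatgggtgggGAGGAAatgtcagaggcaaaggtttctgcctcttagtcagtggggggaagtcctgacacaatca
Ms4a4c promoter (chr19:11407411-11407660, plus strand): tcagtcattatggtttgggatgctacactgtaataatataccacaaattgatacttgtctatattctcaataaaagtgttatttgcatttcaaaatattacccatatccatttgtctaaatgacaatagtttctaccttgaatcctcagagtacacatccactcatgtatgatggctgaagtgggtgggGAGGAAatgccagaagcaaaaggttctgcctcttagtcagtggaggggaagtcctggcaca
The promoters of Ms4a4b and Ms4a4c were 74.2% identical over 240 aligned bases, and both held GAGGAA, beginning 64 and 61 bases before the start site. Those of Ms4a6b and Ms4a6c were 85.1% identical over 175 aligned bases. Searched on both strands, with overlapping matches allowed, GAGGAA occurred in 23.3% of 32851 promoters of this length, TTC and GAA with 4 bases between them (the spacing STAT6 binds) in 5.85%, TTC and GAA with 3 bases between them (that of STAT5) in 7.02% and GAAA followed by GAAA after 2 bases (an interferon response form) in 2.98%. Among the members searched, the STAT6 form was found in an Ms4a7 promoter (chr19:11336147-11336396), beginning 13 bases before the start site. The other RefSeq promoter of Ms4a7 (chr19:11334696-11334945) held none of the 4 patterns. The STAT5 and interferon response forms were found in none of the members searched. The Ms4a8a promoter held none of the 4 patterns. A match or its absence describes these letters only.

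Across the processing choices tried, Ms4a8a stayed between 1.82 and 2.65, Ms4a6d between 1.85 and 2.38 and Ms4a4b between -2.28 and -1.54 on the log2 scale, and all 3 passed the threshold each time. Ms4a6b lay between -0.86 and -0.36. Ms4a4c, Ms4a6c and Ms4a7 changed sign between choices.

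**Figure D5:**
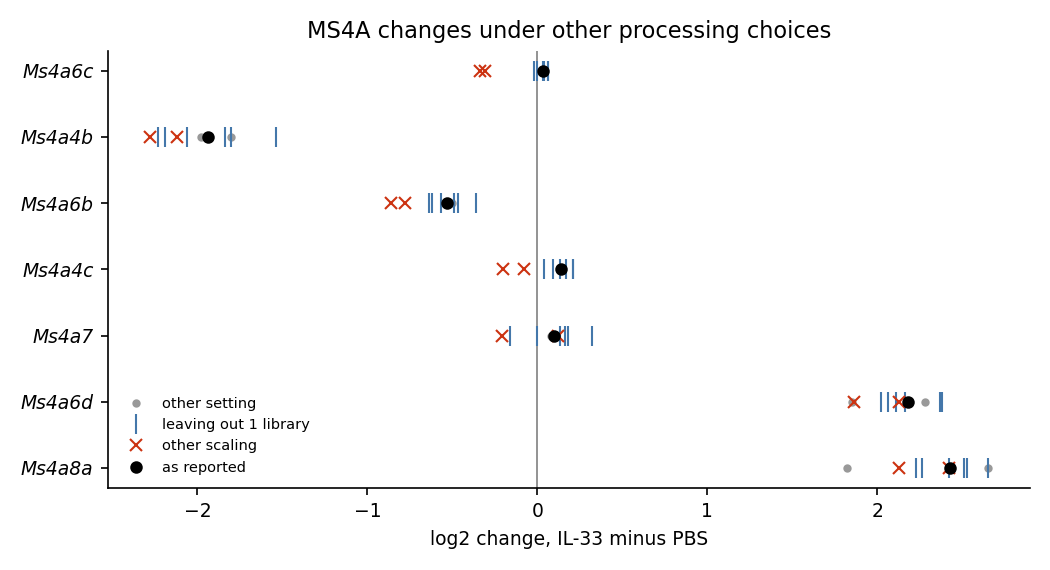
Log2 change (IL-33 minus PBS) of each tested member under every processing choice; black circles are the reported values, blue bars leave out 1 library, red crosses rescale the libraries and grey dots are other settings. Ms4a8a and Ms4a6d stay at 1.82 or more and Ms4a4b at -1.54 or less, while Ms4a6c moves from 0.03 to -0.34 with other scalings.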

How the data were processed

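The authors deposited 1 table of FPKM values per library. Alignment to mm10 involved TopHat2 (version 2.0.13) with Bowtie2 (version 2.2.3) and SAMtools (version 0.1.19), and normalization Cuffnorm (version 2.2.1), as far as the submitters' processing notes list them. The sources used here do not give the annotation, the scaling between libraries or the use of strand. FPKM carries no counts, so absolute depth is unknown. Steps between low values gave depths of 0.946 to 1.22 relative to PBS replicate 1. Summed FPKM was 614522 to 641412 with PBS and 778391 to 841884 with IL-33.

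Genes reaching 1 FPKM in 3 or more of 6 libraries were analysed as log2(FPKM + 1), a scale that understates the change of low genes, with limma 3.58.1 (R 4.3.3; moderated variance with a trend, treatment only, two-sided, Benjamini-Hochberg over all tested genes, threshold 0.05). The fit was tested on simulated data. The members and gene lists were chosen with earlier results of these data known. Named genes were the members, the other family genes, the listed partners, up to 3 genes of lowest adjusted p per marker list and the 2 most similar genes per tested member. Some genes that this rule names are not reported here. Same-numbered libraries were not treated as pairs, since the labels state no pairing. Correlations of deviations were -0.0544 to 0.089 for the same number and -0.113 to 0.0556 for other numbers. With 3 libraries per group these values cannot settle whether the libraries were paired. Alternatives were other pseudocounts, filters, scalings and variance settings, a replicate block and leaving out each library. Coding sequences and positions came from GENCODE M21, promoters from RefSeq (GRCm38.p6), both on the assembly called mm10. Protein sequences were not used here. Python 3.11.15 with numpy 2.4.6, pandas 2.3.3 and matplotlib 3.10.9 served for tables and plots.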

Additional observations from a re-analysis of the deposited data

How the results depend on the processing

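Over all tested genes 3230 were higher and 2939 lower with IL-33, and with equal totals 1280 and 5840, so that higher genes made up 52.4% and 18% of calls. The calls among the other family genes numbered 2, 0 with quantile normalization and 5 without a filter, when 7 in place of 3 of them were tested. The calls gained without a filter include Ms4a3 and Ms4a10, which were close to the limit of detection. Leaving out 1 library at a time gave 2622 to 3108 higher genes, 2214 to 2768 lower genes and 2 to 3 calls among the other family genes. Tnfrsf18 turned to -0.02 with equal totals. The cause was not tested for the scalings. With the replicate number as a block, 2806 genes were higher and 2452 lower, and no member's call differed; the numbers are not stated to pair libraries. For the members, 7 of the values under alternatives moved by more than the spread between libraries, all with other scalings or a pseudocount of 5. The other 91 moved by less, but most of them could not have moved by more. Filters, the variance setting and the block leave the log2 change as it is. With 3 libraries per group, leaving out 1 cannot move it past that spread. Precision is limited by 3 libraries per group.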

Other observations

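Gm8369, a protein-coding gene with no Ms4a symbol, lies within the cluster between Ms4a6c and Ms4a6b, on chromosome 19 from 11485938 to 11512577 (mm10, plus strand). It is named here because of its values. Over 369 aligned coding bases it was 88.6% identical to Ms4a4c and 87% to Ms4a4b. It stood at 8.71, 4.02 and 4.57 FPKM with PBS and at 3.49, 3.53 and 3.58 FPKM with IL-33, so every IL-33 library was below every PBS library. The log2 change was -0.51 (SE 0.23, limma adjusted p = 0.0941). It passed the threshold only when libraries were rescaled to equal totals (-0.79, limma adjusted p = 0.0237) or PBS replicate 2 was left out (-0.70, limma adjusted p = 0.045), and over the alternatives run the highest adjusted p was 0.183.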
